A study of Mus musculus with 6 samples.

Results

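Bone morphogenetic protein (BMP) and transforming growth factor beta (TGF-beta) signalling was described in mouse ear skin through 10 genes: the receptors Acvrl1, Eng, Bmpr2, Tgfbr1 and Tgfbr2, the inhibitory SMADs Smad6 and Smad7, and the ID transcription regulators Id1, Id2 and Id3. They were taken by gene symbol from 18482 genes in the count table, and all 10 were among the 14856 genes with enough reads to be tested. RNA came from ear skin at postnatal day 21. In 3 libraries (lecko) Kdr, which encodes the VEGF receptor VEGFR2, had been deleted from lymphatic endothelial cells, and 3 libraries (control) came from littermates. Both groups had received tamoxifen, which induces the deletion, and the labels do not name the Cre line, the strain or the tamoxifen schedule of these mice. The labels do not say whether each library is a separate animal, and p-values therefore cover the variation among these 6 samples alone, which may be partly technical. Y-linked counts, given below, differ between control 1 and controls 2 and 3. The control libraries thus do not all come from the same animal, and their spread includes this difference.

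BMP and TGF-beta ligands bind pairs of type I and type II receptor kinases on the cell surface, which phosphorylate SMAD proteins that enter the nucleus and regulate genes. In endothelium the type I receptor ALK1 (Acvrl1) works with the type II receptor BMPR2 and the co-receptor endoglin (Eng) and is bound by circulating BMP9 and BMP10. This route is known for restraining vessel growth, and mutations of its genes cause hereditary vascular malformations. The ID genes are direct BMP targets, and Smad6 and Smad7 are induced by the pathway and inhibit it. Most of these genes are also expressed in fibroblasts, keratinocytes or leukocytes, so whole skin does not report on endothelium alone.

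Total counts were 17242921 to 17825135 per library. Kdr had 173, 198 and 180 counts in lecko 1 to 3, against 566, 545 and 674 counts in control 1 to 3, and it fell by 1.72 on the log2 scale (SE 0.10; edgeR adjusted p = 0.00026). Blood vessels also express Kdr. The keratinocyte gene Krt5 was at 3836 CPM (counts scaled to library size) in lecko skin and 4145 CPM in control skin. Among lymphatic endothelial markers, Prox1 was at 22.9 CPM in lecko skin and 20.2 CPM in control skin, and Lyve1 at 51.3 CPM in lecko skin and 54.9 CPM in control skin. The 17 tested markers of that list had a median log2 fold change of -0.064, with 8 above 0 and 9 below. By edgeR 0 of them were called. At an unadjusted p under 0.05 by edgeR, 2 were higher and 2 lower, against 8.56% of all genes in either direction. DESeq2 called 1 of these markers, Ccl21a, lower, and limma-voom 0. Their summed level was 900 to 938 CPM in lecko skin and 908 to 999 CPM in control skin. Counts over 4 Y-linked genes were 4, 21 and 9 in lecko 1 to 3, against 18, 4272 and 4564 in control 1 to 3. Control 1 is thus the control library without Y-linked expression, like the lecko libraries. Results are also given with a sex term and without controls 2 and 3. Under either setting the group difference rests on the lecko libraries against control 1, so these settings make nearly the same comparison.

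None of the 10 genes passed the threshold. By edgeR's quasi-likelihood test 0 of 10 were called at an adjusted p under 0.05, where 3 of all genes tested (0.0202%) were called. DESeq2 also called 0 of 10 (0.191% of the genes it adjusted) and limma-voom 0 of 10 (0.0202%). Id2 and Tgfbr2, both higher, were the members with an unadjusted p under 0.05, against 8.56% of all genes tested (4.89% higher). They were also the members whose groups did not overlap, against 14.6% of all genes (7.37% higher), so with 2 of 10 neither count stands clear of the background. The median log2 fold change of the members was 0.052, 7 of 10 were above 0, and the median over all genes was 0.006 with 51.9% above 0. The fitted changes ranged from -0.13 for Smad7 to 0.26 for Id2, inside the 5th to 95th percentiles of all genes, which were -0.25 and 0.39.

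**Figure D1:**
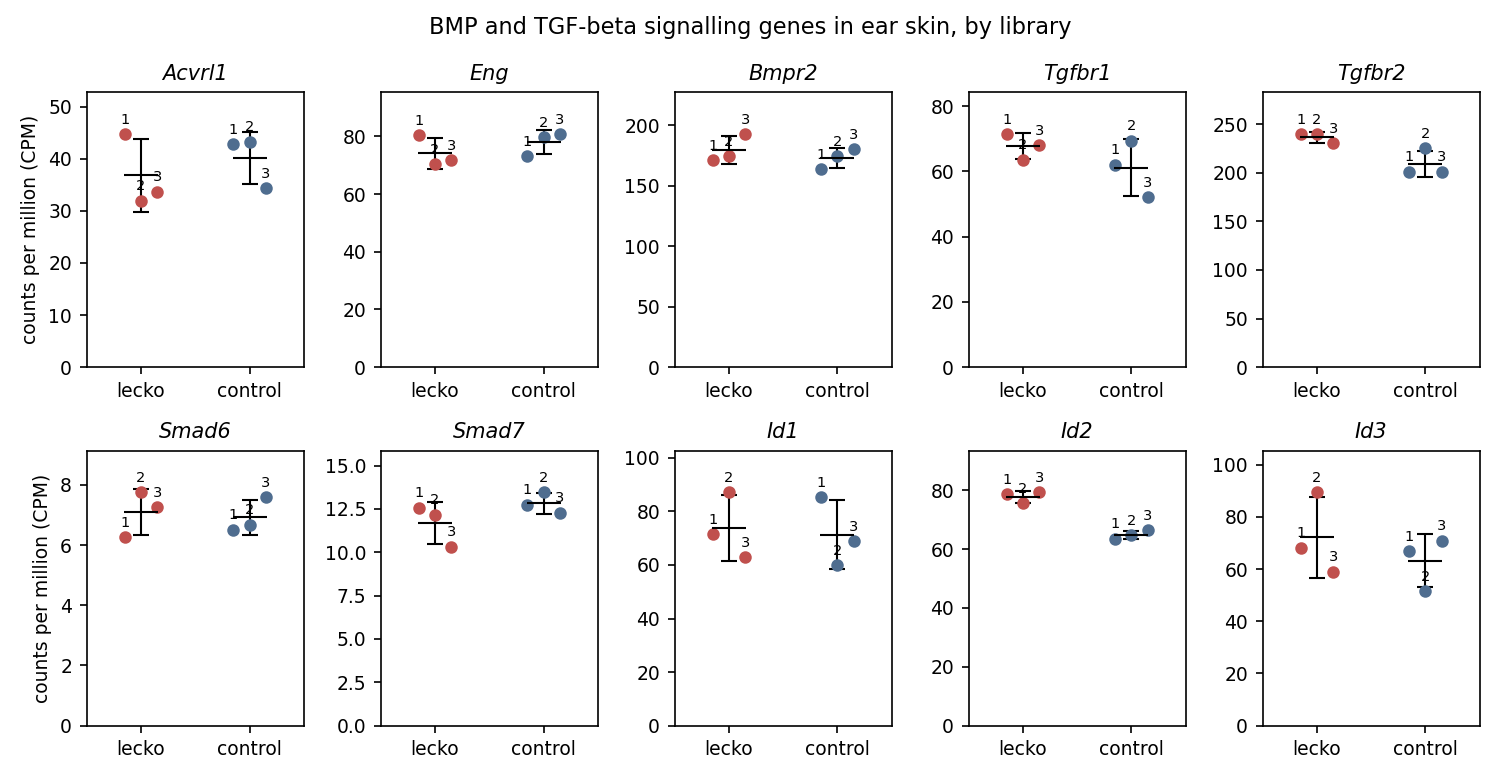
Each panel shows 1 gene in CPM on a linear axis from 0. Points are the 3 lecko and 3 control libraries, numbered by replicate, and bars are mean ± SD. The lecko points lie above all control points for Id2 and Tgfbr2, while the groups overlap for the other genes.

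Among the receptors, Tgfbr2 encodes the type II receptor that binds TGF-beta itself (chr9:116087695-116175363, GRCm38.p6). It had 239.5, 239.8 and 230.1 CPM in lecko 1 to 3, against 201, 225 and 201 CPM in control 1 to 3. Every lecko library was thus above every control, with control 2 nearest to the lecko values. Tgfbr2 averaged 236 ± 5.50 CPM in lecko skin and 209 ± 13.8 CPM in control skin (SD, n = 3 each). The log2 fold change was 0.18 (95% interval 0.039 to 0.32, adjusted p = 0.523 by edgeR). With control 1 as the sole control it was 0.23 (adjusted p = 0.757 by edgeR, and 0.174 to 0.938 over all alternatives). In that fit the spread comes from the lecko libraries alone, and the lone control is assumed to vary as they do.

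Tgfbr1, the type I partner of Tgfbr2, lies at chr4:47353222-47414926. It was at 71.5, 63.5 and 68.0 CPM in lecko skin, against 62.0, 69.5 and 52.1 CPM in control skin. The groups overlapped, and control 3 was the lowest library. Its log2 fold change was 0.15 (95% interval -0.087 to 0.38, adjusted p = 0.716 by edgeR). It was 0.042 without control 3 and 0.24 without control 2 (adjusted p = 0.363 by edgeR, and 0.363 to 0.999 over all alternatives).

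Acvrl1 (chr15:101128522-101145336), the gene of the endothelial type I receptor ALK1, varied most among the receptors. It was at 44.8, 31.9 and 33.7 CPM in lecko 1 to 3, against 42.8, 43.2 and 34.3 CPM in control 1 to 3. Lecko 1 stood with controls 1 and 2, and control 3 with lecko 2 and 3, so the groups overlapped. The log2 fold change was -0.12 (95% interval -0.47 to 0.22, adjusted p = 0.833 by edgeR), -0.30 without lecko 1 and -0.033 without lecko 2, so single libraries set its size. It was -0.22 with the sex term.

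Eng (chr2:32646595-32682669) encodes endoglin, the co-receptor that presents BMP9 to ALK1. It was at 80.4, 70.4 and 71.7 CPM in lecko skin, against 73.2, 79.8 and 80.8 CPM in control skin, with overlap between the groups. Its log2 fold change was -0.072 (95% interval -0.23 to 0.087, adjusted p = 0.804 by edgeR), and it was 0.019 with the sex term, -0.14 without lecko 1 and -0.036 without lecko 2. Bmpr2 (chr1:59764279-59878081), the type II receptor for BMPs, was at 171, 174.5 and 193 CPM in lecko skin, against 164, 174 and 180.2 CPM in control skin. Lecko 3 was the highest library and control 1 the lowest, and the log2 fold change was 0.053 (95% interval -0.094 to 0.20, adjusted p = 0.837 by edgeR) and 0.13 with the sex term. GENCODE marks both Eng and Bmpr2 as overlapping another locus, and the strand setting of the counting is not given in the sources used here.

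Endothelial genes as a list were lower in the same libraries. The 26 pan-endothelial genes, counted without the members and Kdr, had a median log2 fold change of -0.19 with 21 of 26 below 0. By edgeR, DESeq2 and limma-voom 0 were called. By edgeR 11 of these 26 had an unadjusted p under 0.05, all lower, against 8.56% of all genes in either direction. Their summed level was 925 to 994 CPM in lecko skin and 1041 to 1079 CPM in control skin, with no overlap. Pecam1, a junction protein of endothelial cells, averaged 119.5 CPM in lecko skin and 136 CPM in control skin. In whole skin, fewer endothelial cells and less RNA per endothelial cell cannot be told apart. Some lists of other cell types were also lower in the same libraries, while others, given below, were higher. The 14 pericyte and smooth muscle markers had a median of -0.22, with 10 below 0 and a summed level of 947 to 989 CPM in lecko skin and 1025 to 1127 CPM in control skin. All 12 skeletal muscle markers were below 0, with a median of -0.30 and a summed level of 4464 to 5764 CPM in lecko skin and 5984 to 6756 CPM in control skin. By edgeR 0 of either list were called. An unadjusted p under 0.05 by edgeR was reached by 5 pericyte and smooth muscle genes and 7 skeletal muscle genes. All of these were lower, against 8.56% of all genes in either direction. DESeq2 called 1 of their genes, Mcam, lower, and limma-voom 0. The part of these cell types in the values of the members was not tested. Relative to the mean of these 26 genes, log2 Eng was 1.74, 1.58 and 1.67 in lecko 1 to 3, against 1.48, 1.61 and 1.56 in control 1 to 3. The difference for Eng was 0.11, with overlap between lecko 2 and control 2 (two-sided exact permutation p = 0.2, where 3 against 3 allows no p below 0.1). Log2 Acvrl1 relative to the same genes differed by 0.051 (two-sided exact permutation p = 0.9), and it was -0.080 without control 3, -0.077 without lecko 1 and -0.069 without controls 2 and 3. Log2 Smad6 relative to them differed by 0.21 (two-sided exact permutation p = 0.2), with lecko 1 inside the control range. The subtracted mean was 4.592, 4.565 and 4.492 in lecko 1 to 3, against 4.716, 4.706 and 4.778 in control 1 to 3. This lower lecko mean enters each of these differences. Without the subtraction, the log2 fold changes were -0.072 for Eng, -0.125 for Acvrl1 and 0.034 for Smad6.

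**Figure D2:**
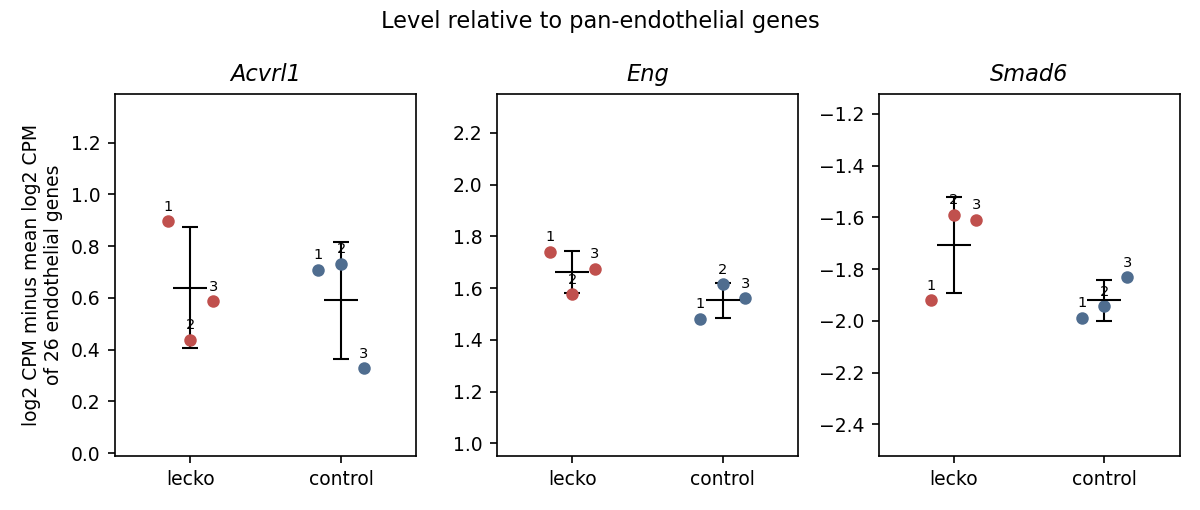
The vertical axis is log2 CPM of the gene minus the mean log2 CPM of 26 pan-endothelial genes, in the 3 lecko and 3 control libraries, with mean ± SD as bars. Mean values were 0.64 in lecko and 0.59 in control skin for Acvrl1, 1.66 in lecko and 1.55 in control skin for Eng, and -1.71 in lecko and -1.92 in control skin for Smad6. The groups overlap in each panel.

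The inhibitory SMADs were the least abundant members. Smad6 (chr9:63953076-64022085), which preferentially blocks BMP receptor signalling, had 111, 137 and 128 counts in lecko 1 to 3, against 113, 116 and 133 counts in control 1 to 3. These counts gave 6.26, 7.75 and 7.26 CPM in lecko skin, against 6.51, 6.67 and 7.59 CPM in control skin, and lecko 1 was the lowest of all libraries. The log2 fold change was 0.034 (95% interval -0.27 to 0.34, adjusted p = 0.955 by edgeR), and it was 0.12 with the sex term. Smad7 blocks TGF-beta and BMP receptors alike. It was at 12.6, 12.2 and 10.3 CPM in lecko skin, against 12.7, 13.4 and 12.3 CPM in control skin. Lecko 3 was the lowest library and the groups overlapped. Its log2 fold change was -0.13 (95% interval -0.38 to 0.11, adjusted p = 0.762 by edgeR), -0.052 without lecko 3 and -0.20 without lecko 1.

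Promoter sequence was available for 7 of the 10 genes in RefSeq's table for GRCm38.p6, which holds 250 bases before and 50 after each transcript start, and not for Acvrl1, Id1 and Smad7. The windows of Smad6, Id2 and Id3 are shown because these genes are known targets of the pathway. Capitals mark every match, on either strand, to 3 sequences bound by SMAD proteins: the palindrome GTCTAGAC, the GC-rich element GGCGCC and the SMAD box CAGAC, which reads GTCTG on the opposite strand. None of these motifs overlaps another in these windows. The windows are chr9:64022010-64022309 (minus strand) for Smad6, chr12:25096043-25096342 (minus strand) for Id2 and chr4:136143572-136143871 (plus strand) for Id3, each written 5′ to 3′ in the direction of the gene.
Smad6: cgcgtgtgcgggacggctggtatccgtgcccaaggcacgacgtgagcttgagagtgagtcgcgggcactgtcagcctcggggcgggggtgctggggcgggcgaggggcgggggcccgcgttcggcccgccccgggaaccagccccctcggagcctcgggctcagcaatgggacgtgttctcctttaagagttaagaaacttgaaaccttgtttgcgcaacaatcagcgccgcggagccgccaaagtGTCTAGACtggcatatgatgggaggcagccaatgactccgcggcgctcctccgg
Id2: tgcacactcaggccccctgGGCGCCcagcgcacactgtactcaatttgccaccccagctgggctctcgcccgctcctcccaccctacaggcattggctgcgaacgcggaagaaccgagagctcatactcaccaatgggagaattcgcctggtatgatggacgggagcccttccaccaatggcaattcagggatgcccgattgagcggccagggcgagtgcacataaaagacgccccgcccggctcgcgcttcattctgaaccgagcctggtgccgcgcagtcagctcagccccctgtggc
Id3: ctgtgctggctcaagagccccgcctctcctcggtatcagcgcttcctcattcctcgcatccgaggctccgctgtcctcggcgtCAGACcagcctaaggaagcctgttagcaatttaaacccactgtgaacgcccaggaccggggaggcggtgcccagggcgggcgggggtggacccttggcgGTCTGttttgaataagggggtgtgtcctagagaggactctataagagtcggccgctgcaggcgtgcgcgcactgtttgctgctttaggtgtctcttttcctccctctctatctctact
Smad6 held the palindrome, starting 4 bases before the transcript start of its window, a sequence found in 0.213% of 32851 promoter windows. That start and the palindrome lie inside the Smad6 gene interval given above, whose 5′ end is at 64022085. The Id2 and Id3 windows use the 5′ ends of their gene intervals. Id2 held GGCGCC, found in 11.9% of windows, starting 231 bases before its start. Id3 held the SMAD box in both orientations, starting 167 and 68 bases before its start, and 49.6% of windows hold at least 1 such box. The GC content was 66.3% for Smad6, 63.3% for Id2 and 60.0% for Id3, against a median of 52.7% over all windows. These matches describe the windows only, and more distant elements were not searched.

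Of the ID targets, Id2 showed the closest replicates and Id1 and Id3 the widest. ID proteins bind E proteins and keep them from DNA, and Id2 is also needed by dendritic and innate lymphoid cells. Id2 (chr12:25093799-25096092) had 1392, 1336 and 1396 counts in lecko 1 to 3, against 1102, 1126 and 1162 counts in control 1 to 3. It was at 78.5, 75.5 and 79.2 CPM in lecko skin, against 63.5, 64.7 and 66.3 CPM in control skin. All lecko libraries were above all controls, of which control 1 alone lacked Y-linked expression, like the lecko libraries. Id2 averaged 77.8 ± 1.97 CPM in lecko skin and 64.9 ± 1.41 CPM in control skin (SD, n = 3 each), 1.20-fold. The log2 fold change was 0.26 (SE 0.053, 95% interval 0.14 to 0.38), which missed the threshold with adjustment over the whole table (adjusted p = 0.373 in edgeR, 0.179 in DESeq2 and 0.453 in limma-voom). Over all alternatives the fold change of Id2 lay between 0.24 and 0.29 on the log2 scale, with adjusted p from 0.171 to 0.938, and it was 0.29 with the sex term (adjusted p = 0.901 by edgeR).

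Leukocyte markers moved in the same direction as Id2. All 22 tested leukocyte genes had a positive log2 fold change, with a median of 0.42. While edgeR and limma-voom called 0, DESeq2 called 2, Ptprc and Ciita. Of the 22 genes, 10 had an unadjusted p under 0.05 by edgeR, where 4.89% of all genes were higher at such a p. Their summed level was 1681 to 2093 CPM in lecko skin and 1182 to 1717 CPM in control skin, overlapping between lecko 2 and control 2. Ptprc, the gene of the leukocyte antigen CD45, was at 62.5, 46.3 and 54.0 CPM in lecko skin, against 35.9, 40.6 and 30.2 CPM in control skin. Other marker lists went both ways. Keratinocyte genes had a median log2 fold change of -0.088 (3 of 12 above 0) and adipocyte genes -0.06 (2 of 8 above 0). The cartilage, melanocyte and hair follicle lists were mostly higher. The median log2 fold change was 0.27 for cartilage (7 of 8 genes above 0), 0.25 for melanocytes (6 of 8) and 0.25 for hair follicle (11 of 13), and 0 of these were called by edgeR, DESeq2 or limma-voom. By edgeR 2 cartilage, 0 melanocyte and 2 hair follicle genes had an unadjusted p under 0.05, all higher. Their summed levels overlapped between the groups, at 758 to 1117 CPM in lecko skin and 677 to 941 CPM in control skin for cartilage, 244 to 305 CPM in lecko skin and 203.5 to 268 CPM in control skin for melanocytes, and 177 to 202 CPM in lecko skin and 152 to 198.5 CPM in control skin for hair follicle. The part of leukocytes and of these cell types in the Id2 and Tgfbr2 values was not tested.

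Id1 (chr2:152736251-152737410), the classic BMP target of endothelium, was at 71.5, 87.1 and 62.9 CPM in lecko 1 to 3, against 85.2, 59.9 and 68.9 CPM in control 1 to 3. Id3 (chr4:136143822-136145392), a close relative induced by the same SMADs, was at 68.2, 89.4 and 59.0 CPM in lecko skin, against 66.9, 51.6 and 70.9 CPM in control skin. For both genes lecko 2 was the highest library and control 2 the lowest, and the groups overlapped. Log2 fold changes were 0.050 for Id1 (95% interval -0.34 to 0.44, adjusted p = 0.944 by edgeR) and 0.19 for Id3 (95% interval -0.25 to 0.64, adjusted p = 0.803 by edgeR). Without lecko 2 the values were -0.086 for Id1 and 0.010 for Id3, without control 2 they were -0.065 for Id1 and 0.063 for Id3, and without lecko 3 they were 0.15 for Id1 and 0.32 for Id3. Against control 1 alone, in a fit whose spread comes from the lecko libraries alone, Id1 was at -0.21 (adjusted p = 0.855 by edgeR, and 0.855 to 0.999 over all alternatives). Id3 was at 0.11 with the sex term and 0.10 against control 1 alone. Id2 did not share this pattern, since its lecko 2 value was the lowest of the 3 lecko libraries.

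**Figure D3:**
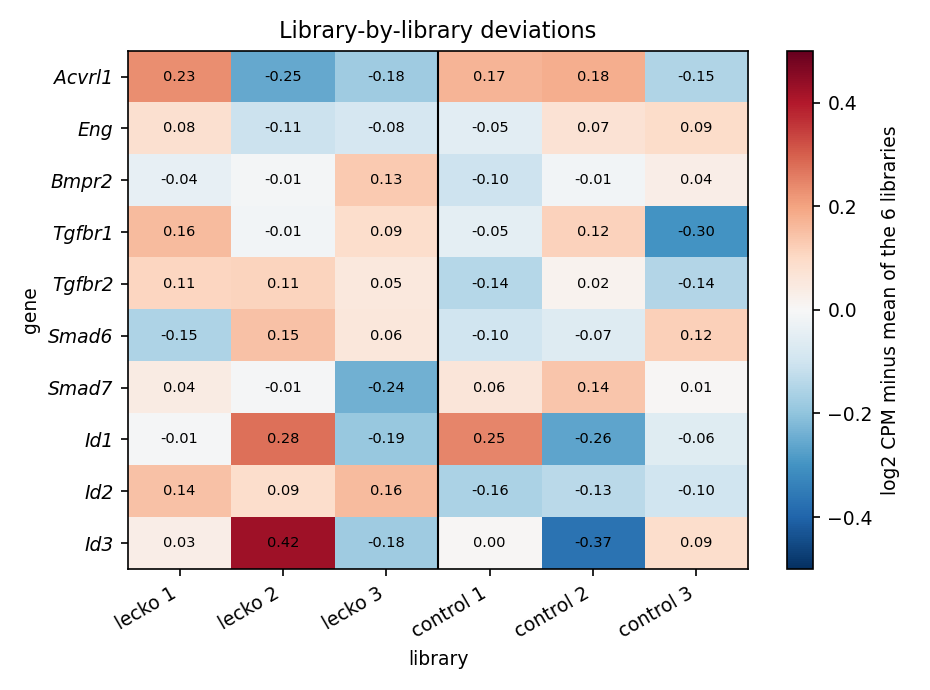
Rows are the 10 genes and columns the 3 lecko and 3 control libraries. Colours and numbers give log2 CPM minus the mean of the 6 libraries. Id1 and Id3 are highest in lecko 2 (0.28 and 0.42) and lowest in control 2 (-0.26 and -0.37), while Id2 is above 0 in every lecko library and below 0 in every control.

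**Figure D4:**
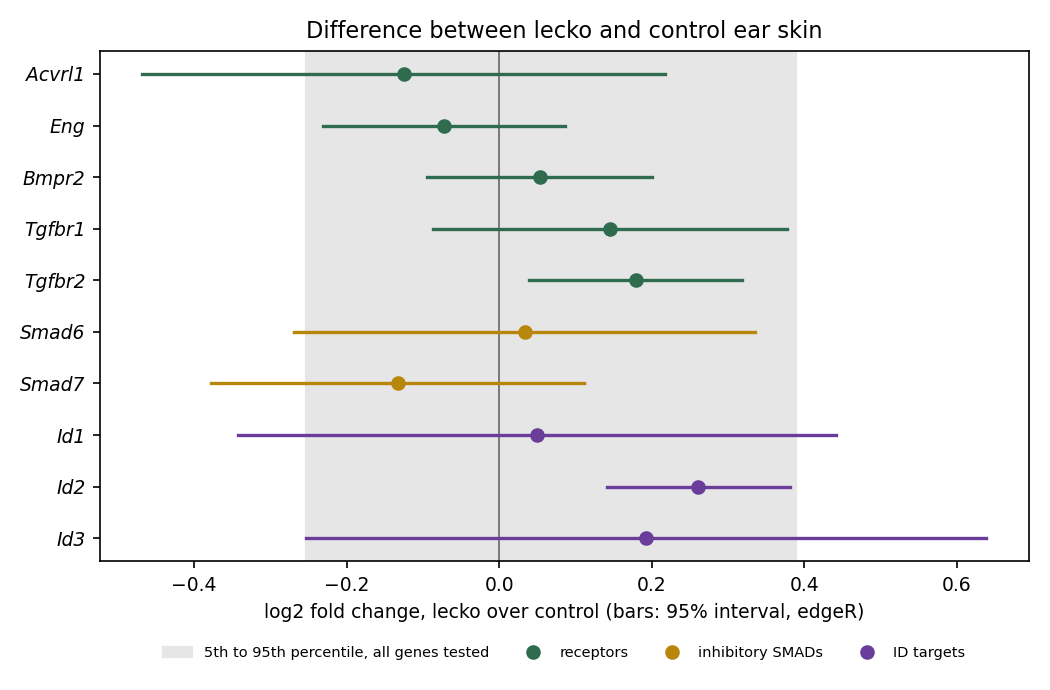
Points are edgeR log2 fold changes, lecko over control, with 95% intervals as lines, coloured by role. The grey band spans the 5th to 95th percentiles of all genes tested (-0.25 to 0.39). The intervals of Tgfbr2 and Id2 lie above 0 and the other 8 cross it.

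Levels were compared between genes per kilobase of the longest GENCODE protein-coding transcript, so the order depends on that choice of length. Id1 was at 63.6 ± 10.5 CPM per kilobase in lecko skin and 61.5 ± 11.1 in control skin (SD, n = 3 each), and Id3 at 56.5 in lecko and 49.4 in control skin. Their ranges over the 6 libraries overlapped. Next came Id2 at 39.5 in lecko and 32.9 in control skin, and Tgfbr2 at 29.2 in lecko and 25.8 in control skin. Eng was at 21.7 in lecko and 22.8 in control skin, and Bmpr2 at 13.9 in lecko and 13.4 in control skin. The ranges of these 4 genes were each apart from their neighbours in the order. Acvrl1, at 10.1 in lecko and 11.0 in control skin, overlapped with Tgfbr1, at 11.8 in lecko and 10.6 in control skin. Smad7, at 2.73 in lecko and 3.0 in control skin, overlapped with Smad6, at 2.39 in lecko and 2.33 in control skin, and Id1 was 26.4 times Smad6 in control skin.

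The profiles most like those of the 3 members with the widest range were sought among 11105 other named genes whose log2 CPM averaged 3 or more. The measure was the root mean square difference of log2 CPM, each gene centred on its mean over the 6 libraries. The closest to Acvrl1 was Lyve1, the hyaluronan receptor of lymphatic vessels and some macrophages, at 0.037, followed by Slc39a14, a metal ion transporter, at 0.052. Lyve1 was at 61.4, 44.8 and 47.8 CPM in lecko skin, against 56.2, 60.7 and 47.9 CPM in control skin. It was high and low in the same libraries as Acvrl1, which is what the search selected for. For Id3 the closest were Phf13 at 0.078 and Clcf1, a cytokine of the interleukin-6 family, at 0.079, and for Id1 they were Ttc39a at 0.069 and Pir at 0.072. Between Id1 and Id3 the difference was 0.14, and 32 non-members were closer to Id3 and 160 closer to Id1. Smad7 was the member nearest to Acvrl1, at 0.152, and 774 non-members were closer. The search covered 11105 genes over 6 libraries, and whether these matches are closer than such a search alone would give was not tested.

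The other genes of the pathway were given by role from 62 further genes. Of these, 60 were tested and 0 were called by edgeR, DESeq2 or limma-voom, while by edgeR 6 higher and 1 lower had an unadjusted p under 0.05 (11.7%, against 8.56% of all genes). Their median log2 fold change was 0.085, and 42 of 60 were above 0.

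The ligand list had a median of 0.17 over 12 tested genes, 10 of them above 0. Gdf2, which encodes BMP9 and is made mainly in liver, had 1, 1 and 0 counts in lecko skin, against 0, 0 and 0 counts in control skin. Of the 14 ligands listed, 13 were in the count table, and Bmp10 was not among these 13. Inhbb, the beta B chain of activins and inhibins, was at 31.2, 43.9 and 36.8 CPM in lecko skin, against 28.0, 22.9 and 27.9 CPM in control skin. The groups did not overlap, and the log2 fold change was 0.51 (95% interval 0.20 to 0.82, adjusted p = 0.467 by edgeR). Tgfb1, the TGF-beta ligand abundant in leukocytes and platelets, was at 42.8, 42.5 and 41.1 CPM in lecko skin, against 38.5, 39.6 and 29.9 CPM in control skin. It did not overlap between groups, with a log2 fold change of 0.23 (adjusted p = 0.588 by edgeR) that was 0.11 without control 3 and 0.13 with the sex term.

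Other receptors and SMADs went both ways. The 8 receptors had a median of -0.003, with 4 above 0 and 4 below. The 6 SMADs had a median of 0.002, with 3 above 0 and 3 below. By edgeR 0 of these 14 had an unadjusted p under 0.05, against 8.56% of all genes tested. Tgfbr3, the co-receptor betaglycan, had a log2 fold change of 0.15 (adjusted p = 0.694 by edgeR), and Bmpr1a, a BMP type I receptor, 0.10 (adjusted p = 0.702 by edgeR). Single libraries moved both, with Tgfbr3 at 0.075 without lecko 1 and 0.26 without lecko 2, and Bmpr1a at 0.042 without lecko 3, and Bmpr1a was at 0.18 with the sex term. Bmpr1b, another BMP type I receptor, is named after its values were seen, as the only one of the 8 whose groups did not overlap. Over all genes tested, 14.6% did not overlap. Bmpr1b had 113 counts in both lecko 3 and control 3, so its separation in CPM rests on the scaling of these libraries. It was at 5.47, 5.94 and 6.41 CPM in lecko skin, against 6.75, 7.07 and 6.45 CPM in control skin, with a log2 fold change of -0.18 (95% interval -0.47 to 0.098, adjusted p = 0.708 by edgeR). The signal-carrying Smad2 and Smad5 were at 0.067 and 0.018, with SEs of 0.054 and 0.051, and Smad2 was at 0.033 with the sex term and 0.037 without lecko 3.

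Antagonists and other regulators had a median of 0.15 over 21 genes, 18 of them above 0 and 4 at an unadjusted p under 0.05, all higher. Over all genes tested, 51.9% were above 0 and 4.89% were higher at such a p. Skil, a repressor of SMAD complexes that TGF-beta itself induces, was at 61.5, 69.5 and 66.3 CPM in lecko skin, against 56.3, 57.5 and 58.0 CPM in control skin. Twsg1, an extracellular BMP modulator, was at 201, 201 and 207 CPM in lecko skin, against 182, 184 and 181 CPM in control skin. Both genes separated the groups, with log2 fold changes of 0.20 and 0.15 (adjusted p = 0.504 for each by edgeR). Fibroblasts express many genes of this list, and the 14 fibroblast markers had a median of 0.14, with a summed level of 30400 to 33340 CPM in lecko skin and 25020 to 39780 CPM in control skin. The part of fibroblasts in these values was not tested.

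Among the 13 other targets the median was 0.039. Thbs1, the gene of the TGF-beta activator thrombospondin 1, was at 732.5, 708 and 729 CPM in lecko skin, against 467, 657 and 398 CPM in control skin. Its log2 fold change was 0.51 (95% interval 0.092 to 0.93, adjusted p = 0.530 by edgeR), and it was 0.74 and passed the threshold without control 2 (adjusted p = 0.015 by edgeR, and 0.015 to 0.938 over all alternatives). Control 2 was the control nearest to the lecko values. Over all genes, 36 were called higher without control 2, against 2 in the main fit. Cdkn1a, a cell cycle inhibitor induced by TGF-beta among other signals, was at 333, 368 and 340 CPM in lecko skin, against 383, 392.5 and 425 CPM in control skin. All lecko libraries were below all controls, with a log2 fold change of -0.21 (adjusted p = 0.504 by edgeR).

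**Figure D5:**
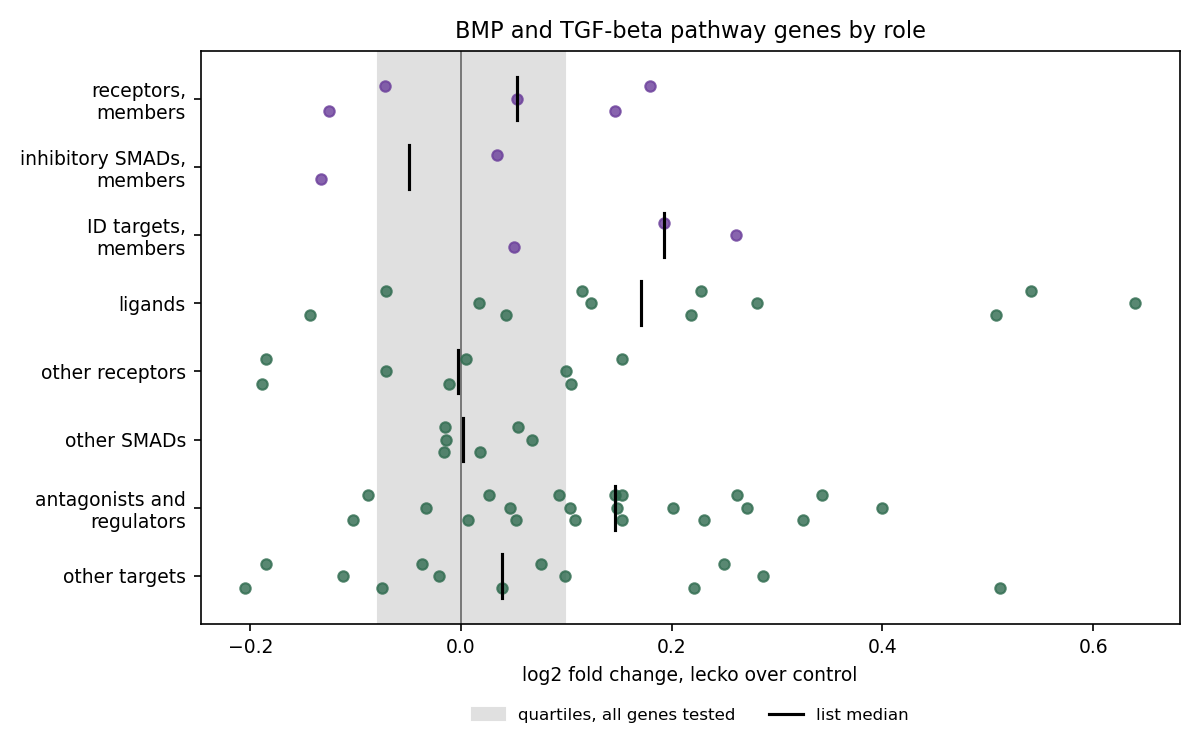
Points are log2 fold changes, lecko over control, of the 10 members (purple) and 60 other tested pathway genes (green) by role, with list medians as black bars. The grey band spans the quartiles of all genes tested (-0.079 and 0.098). The medians are 0.17 for the ligands, 0.19 for the 3 ID targets and 0.15 for the antagonists, and the band describes single genes, not medians of lists.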

How the data were processed

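Polyadenylated RNA from 6 ear skin libraries was analysed, 3 per group, grouped by sample title. The authors deposited estimated counts per gene without scaling to depth or length, and between 9.6 and 10.5% of a library's values are fractional. Tools listed in the submitters' processing notes are RSEM 1.3.1, HISAT2 2.2.1 and Bowtie2 2.4.5, with build GRCm38.p6. What each tool did, which annotation was used and how strand was treated is not given in the sources used here. Reads shared between similar genes were divided by estimation, which can shift values of close relatives.

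Counts were rounded, filtered with filterByExpr (minimum count 10, minimum total 15), scaled by TMM and tested with edgeR 4.0.16 in R 4.3.3 (quasi-likelihood, robust estimation, a group term only). P-values were adjusted by Benjamini-Hochberg over 14856 genes, with 0.05 as threshold. CPM use TMM-scaled library sizes, and log2 CPM a prior count of 2. Levels relative to endothelial genes were tested by exact permutation over 20 arrangements. Within groups, library pairs differed by 8.20 to 17.51 times the sampling variance, so none was counted as a duplicate. Coordinates and promoters are RefSeq's for GRCm38.p6, and lengths are from GENCODE vM21.

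The members, gene lists, rules and alternatives were chosen with earlier results of these data known. All members were named. Each pathway list gave its called genes or else its 2 genes with the smallest unadjusted p. Likeness was sought for the 3 members with the widest range. Alternatives were DESeq2 1.42.0, limma-voom (limma 3.58.1), other size factors and filters, no robust estimation, unrounded counts, a replicate block, a sex term (Y-linked sum above 10 CPM), and leaving out each library or controls 2 and 3.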

Additional observations from a re-analysis of the deposited data

How the results depend on the processing

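Of 170 fold changes (10 members under 17 alternatives), 161 kept their direction, 9 turned and 0 were called. Acvrl1, Tgfbr1, Tgfbr2, Smad7, Id2 and Id3 turned under none of these 17. Alternatives that changed only the tool, size factors, filter, rounding, robust estimation or block reuse the same 6 libraries, so they are not independent checks. Eng was at 0.019 with the sex term and 0.012 without controls 2 and 3, and Id1 at -0.21 under both (-0.207 and -0.213). Both settings set the lecko libraries against control 1, so their likeness is built in and they are not independent checks. With single libraries left out, Id1 ranged from -0.086 (without lecko 2) to 0.191 (without control 1), Smad6 from -0.035 (without lecko 2) to 0.106, Bmpr2 from -0.002 (without lecko 3) to 0.084 and Smad5 from -0.009 (without control 3) to 0.039. The members' median of 0.052 was 0.116 with the sex term, 0.109 without controls 2 and 3, and -0.012 (without lecko 2) to 0.087 (without lecko 1) with single libraries left out. Acvrl1 relative to endothelial genes ranged from -0.080 to 0.152 with single libraries left out and was -0.069 without controls 2 and 3, which leaves 1 control. Over all genes, 2 were called higher and 1 lower; DESeq2 called 22 higher and 10 lower, and leaving out single libraries gave 2 to 36 higher (36 without control 2, 4 without lecko 2) and 1 to 5 lower (5 without control 1, 2 without lecko 2). The causes were not tested. Same-numbered libraries had correlations of deviations of 0.337, -0.072 and 0.035. Lecko 2 correlated best with control 3 (0.234) and lecko 3 with control 2 (0.082). With 3 libraries per group these correlations cannot decide whether the numbers pair the samples. With the replicate block the members' median was 0.052, Id2 was at 0.261 (adjusted p = 0.404 by edgeR, and 0.171 to 0.938 over all alternatives) and 2 genes were called higher and 1 lower. Smad6, with 111 to 137 counts, had a 95% interval of -0.27 to 0.34, and Id3, with 898 to 1581 counts, a wider one of -0.25 to 0.64.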

Other observations

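Several pathway genes separated the groups by small margins with little spread between libraries, and are named here after their values were seen. In all, 11 of the 60 other pathway genes did not overlap between the groups, against 14.6% of all genes tested. Smurf2, a ubiquitin ligase that SMAD7 brings to TGF-beta receptors, was at 84.1, 85.0 and 89.3 CPM in lecko skin, against 78.5, 78.4 and 76.9 CPM in control skin, a log2 fold change of 0.15 (adjusted p = 0.526 by edgeR). Smurf1, another listed regulator, was at 68.73, 68.29 and 68.10 CPM in lecko skin, against 66.08, 68.08 and 63.66 CPM in control skin. Its log2 fold change was 0.052 (adjusted p = 0.812 by edgeR). Fstl3, which binds activins, was at 17.7, 17.2 and 17.7 CPM in lecko skin, against 18.6, 18.6 and 19.4 CPM in control skin, with a log2 fold change of -0.10 (adjusted p = 0.736 by edgeR). Bmp7, a BMP ligand of epithelia, was at 38.7, 39.1 and 37.9 CPM in lecko skin, against 41.9, 39.9 and 39.8 CPM in control skin, with a log2 fold change of -0.071 (adjusted p = 0.770 by edgeR).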
